A study of Homo sapiens with 6 samples.

Results

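Expression of 7 germinal centre B cell genes, SERPINA9, BCL6, MYBL1, GCSAM, LMO2, S1PR2 and MME, was examined in the cell line MEC-1, which was established from the B cells of a chronic lymphocytic leukemia (CLL). The genes were taken by symbol, and each was read on the probe set, annotated to that symbol alone, chosen by the highest mean over the 6 arrays; each of the 7 had exactly 1 such probe set, out of 18404 genes measured in this way. Both groups of cells had received a lentiviral short hairpin RNA (shRNA): it targeted UGT2B17, which encodes an androgen-glucuronidating enzyme, in the cells of 3 arrays and was scrambled in those of the other 3. The cells grew in RPMI medium with fetal calf serum and without phenol red or antibiotics, and the labels name no time after transduction and no number of hairpins. The 7 genes were selected on this contrast of knockdown and scrambled arrays, with earlier results of it known. Their values are therefore given as a description, without p-values, and no test is read from them. The labels do not say that the replicates were separate cultures, and p-values for other genes measure the spread between these arrays only.

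Germinal centres are the follicular structures in which activated B cells divide, mutate their antibody genes and are selected by antigen and T cell help. BCL6 is the transcriptional repressor that sets up this state, and it holds back genes of activation, cell cycle arrest and plasma cell differentiation. Most of the other genes are used in pathology to recognise germinal centre B cells or lymphomas that resemble them. CLL cells are not germinal centre cells as a rule.

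The upstream sequences of 3 of the genes are shown because they carry short motifs bound by factors of the B cell programme. RefSeq promoter windows of GRCh38.p14 were used for 5 of the 7 genes, SERPINA9, BCL6, GCSAM, S1PR2 and MME, and the 250 bases before the annotated start were searched on both strands. No window was at hand for LMO2, and none was used for MYBL1. Capitals mark matches to the octamer ATGCAAAT, which is bound by POU2F factors, in the first sequence and to TTCNNNGAA, the form shared by STAT and BCL6 sites, in the other two. The sequences run 5′ to 3′ on the gene's strand, which is the minus strand for each: SERPINA9 lies at chr14:94476198-94476447, BCL6 at chr3:187745469-187745718 and GCSAM at chr3:112133249-112133498.

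SERPINA9: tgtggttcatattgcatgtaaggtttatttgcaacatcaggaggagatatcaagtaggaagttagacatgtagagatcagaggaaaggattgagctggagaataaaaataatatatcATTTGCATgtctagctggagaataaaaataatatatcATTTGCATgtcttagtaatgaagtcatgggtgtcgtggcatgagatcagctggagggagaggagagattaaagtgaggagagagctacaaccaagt

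BCL6: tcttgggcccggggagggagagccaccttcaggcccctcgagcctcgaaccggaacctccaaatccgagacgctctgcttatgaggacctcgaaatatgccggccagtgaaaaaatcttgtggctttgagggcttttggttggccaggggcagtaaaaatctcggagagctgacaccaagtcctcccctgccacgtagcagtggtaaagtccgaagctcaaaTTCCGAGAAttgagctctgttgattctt

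GCSAM: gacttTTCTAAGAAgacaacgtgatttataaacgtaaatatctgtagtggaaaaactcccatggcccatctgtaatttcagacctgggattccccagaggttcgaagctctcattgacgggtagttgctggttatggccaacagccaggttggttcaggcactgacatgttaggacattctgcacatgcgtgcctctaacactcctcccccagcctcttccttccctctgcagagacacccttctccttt

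The SERPINA9 window held a direct repeat of 37 bases in 2 adjacent copies, and each copy held 1 octamer in reverse orientation, from -133 to -126 and from -96 to -89 relative to the start. At least 1 octamer was present in 1.63% of 35116 RefSeq windows of the same length, and 2 or more in 13 of them, or 0.0370%. The repeat by itself gives the second match. The TTCNNNGAA form, present in 6.57% of windows, lay at -28 to -20 before the upstream BCL6 start and at -245 to -237 before the GCSAM start. The narrower form TTCCTNGAA, present in 1.37% of windows and contained in the broader one, was in none of the windows of the 5 genes. BCL6 had an upstream and a downstream window, and MME had several. The downstream BCL6 window and the windows of S1PR2 and MME held no match to any of these forms. Base composition differed widely: 38.0% of the SERPINA9 stretch was G or C against 74.0% of the S1PR2 stretch and a median of 58.0% over all windows. A match is a description of letters, and binding was not measured here.

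The arrays were similar in all, with mean correlations of 0.9934 to 0.9958 within groups and 0.9915 to 0.9946 between groups. The mean for scrambled replicate 1 was 0.9946 with the knockdown arrays and 0.9943 with its own group. Scrambled replicate 3 lay furthest from its group, with deviations from the group mean of 0.166 log2 units (root mean square) against 0.117 to 0.142 for the other 5 arrays, so the differences of the 7 genes are also given without it. UGT2B17 fell, from 3.85 ± 0.14 to 3.21 ± 0.05 log2 units (SD, n = 3 each), by 0.64 ± 0.08 (SE; limma, adjusted p = 0.00654), on a dim probe set. Of 18404 genes, 665 passed at an adjusted p under 0.05, or 3.61%; the knockdown was above in 1.92% and below in 1.69%.

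The cells had the B cell markers that the label calls for. All 11 measured B cell markers read above the highest of 23 genes of liver, heart, lung, pancreas, eye, kidney and skin, which served as a reference for probe sets with little or no transcript and had means of 3.52 to 6.48 log2 units, with a median of 5.16. None of 11 T cell markers did, and 2 of 11 myeloid and follicular dendritic cell markers did, CD68, a lysosomal protein of macrophages, and ELANE, neutrophil elastase. Of the 7 germinal centre genes, BCL6, MYBL1, GCSAM and S1PR2 had means above this range, SERPINA9 and LMO2 lay in its upper part, and MME lay below its median. For UGT2B17 the scrambled mean of 3.85 lay near the bottom of this range, and the knockdown mean of 3.21 lay below it. Probe sets differ in their own background, so these positions mark where a change would be compressed and do not rank the genes.

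SERPINA9, also called centerin or GCET1, is a secreted serine protease inhibitor made by germinal centre B cells, and it differed most among the 7 genes. The knockdown arrays read 6.40, 6.88 and 6.56 log2 units in replicates 1, 2 and 3, and the scrambled arrays read 5.71, 5.76 and 5.52. Every knockdown array stood above every scrambled array, with 0.64 log2 units between the nearest of them. The means were 6.61 ± 0.25 and 5.66 ± 0.12 (SD, n = 3 each), so SERPINA9 was higher by 0.95 ± 0.12 log2 units (SE), or 1.93-fold. Ordered from the most increased, this difference was number 15 of 18404 genes. It was 0.88 ± 0.13 without scrambled replicate 3 and lay between 0.81 and 1.05 when each array was left out in turn. The scrambled values were inside the range of the reference genes, where RMA values compress fold changes.

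The 3 transcriptional regulators did not share this pattern. BCL6 read 6.81, 6.84 and 6.72 log2 units in knockdown replicates 1, 2 and 3, and 6.90, 6.93 and 6.52 in the scrambled replicates. The knockdown values lay between the scrambled ones, with scrambled replicate 3 the lowest of all. The difference was 0.01 ± 0.11 log2 units (SE), and it turned to -0.12 ± 0.06 without scrambled replicate 3.

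LMO2, a LIM-domain bridging protein that joins E proteins and LDB1 in transcription complexes, read 6.48, 6.52 and 6.73 in the knockdown and 6.53, 6.44 and 6.07 log2 units with scrambled shRNA. The groups overlapped, and scrambled replicate 3 again gave the lowest value. The difference of 0.23 ± 0.12 log2 units (SE) became 0.09 ± 0.09 without that array.

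MYBL1, or A-MYB, a transcription factor of proliferating germinal centre B cells, read 8.0, 8.24 and 8.31 log2 units in the knockdown and 8.66, 8.49 and 8.33 in the scrambled replicates. It was the only one of the 7 genes with every knockdown array below every scrambled array, by a margin of 0.02 log2 units between knockdown replicate 3 and scrambled replicate 3. The means of 8.18 ± 0.16 and 8.49 ± 0.17 (SD, n = 3 each) differed by -0.31 ± 0.11 (SE), or 1.24-fold, and by -0.39 ± 0.10 without scrambled replicate 3.

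The remaining 3 genes act at the cell surface or just beneath it. GCSAM, the adaptor also known as HGAL or GCET2 that binds SYK and restrains B cell motility through RhoA, gave bright signal on every array, with a mean above 98.3% of the deposited probe sets. It read 12.11, 12.12 and 12.16 log2 units in the knockdown and 12.12, 11.96 and 11.78 with scrambled shRNA. The knockdown arrays lay close together (SD 0.03), the scrambled arrays spread more widely (SD 0.17), and scrambled replicate 1 lay within the knockdown values. The difference was 0.17 ± 0.09 log2 units (SE), and 0.09 ± 0.07 without scrambled replicate 3.

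S1PR2, the sphingosine 1-phosphate receptor that couples to G alpha 13 and keeps B cells within the germinal centre, read 8.70, 8.52 and 8.49 log2 units in the knockdown and 8.37, 8.23 and 8.45 in the scrambled arrays. The groups did not overlap, but the lowest knockdown array and the highest scrambled array were 0.04 log2 units apart. The means of 8.57 ± 0.11 and 8.35 ± 0.11 (SD, n = 3 each) differed by 0.22 ± 0.09 (SE), or 1.16-fold. Here scrambled replicate 3 was the highest of its group, and without it the difference was 0.27 ± 0.09.

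MME, the surface peptidase neprilysin or CD10 that is the classical germinal centre antigen of flow cytometry, gave dim signal, with a mean above only 11.7% of the deposited probe sets. It read 3.62, 3.87 and 3.83 log2 units in the knockdown and 3.80, 3.67 and 4.06 with scrambled shRNA. The groups overlapped, and the difference of -0.07 ± 0.11 log2 units (SE) turned to 0.04 ± 0.09 without scrambled replicate 3. Both means lay within the range of the reference genes, where a change is compressed.

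**Figure D1:**
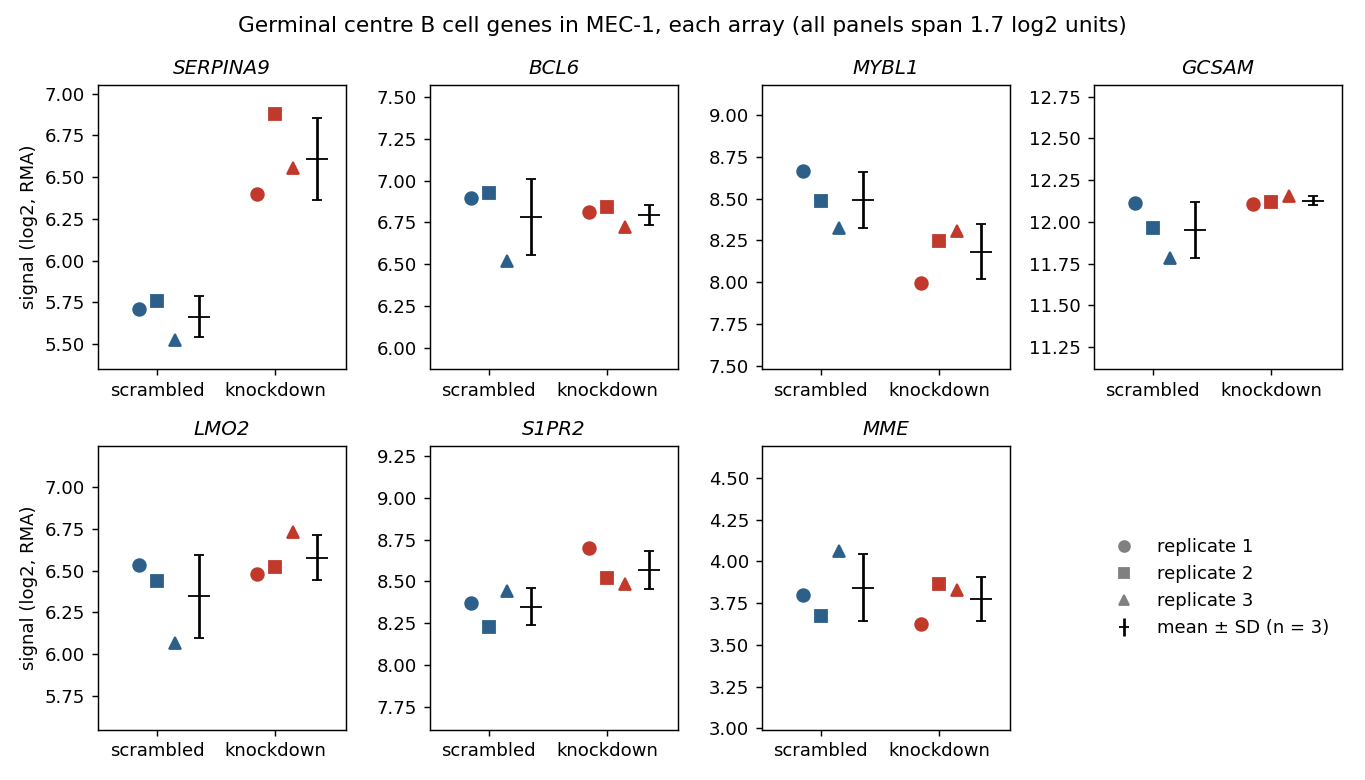
Signal of each gene on each array in log2 units (vertical axes, all of the same span) for scrambled (blue) and knockdown (red) cells; symbols give the replicate number and black bars the mean ± SD (n = 3). SERPINA9 is separated by 0.64 log2 units, S1PR2 and MYBL1 by 0.04 and 0.02, and the groups of the other 4 genes overlap.

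As a set, 5 of the 7 genes had a difference above 0 and 2 below it, with a median of 0.17 log2 units against -0.002 over all 18404 genes. The groups did not overlap for 3 of the 7, with the knockdown above for SERPINA9 and S1PR2 and below for MYBL1; among all genes tested 24.8% had groups that did not overlap, 11.8% with the knockdown above and 13.1% with it below. In the limma fit over all genes, which included the 7, only SERPINA9 among them lay past the threshold that 3.61% of all genes passed. For a gene selected on this contrast, that position is not a test. Since the genes were selected on this contrast, these counts describe them and nothing is read from them. Scrambled replicate 3 was the lowest of all 6 arrays for SERPINA9, BCL6, GCSAM and LMO2, and the highest for MME; over all genes it was the lowest for 24.2% and the highest for 28.9%. Without it the median of the 7 differences was 0.09. The pooled SD within groups ran from 0.11 for S1PR2 to 0.20 for LMO2, each above the median of 0.098 log2 units over all genes.

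**Figure D2:**
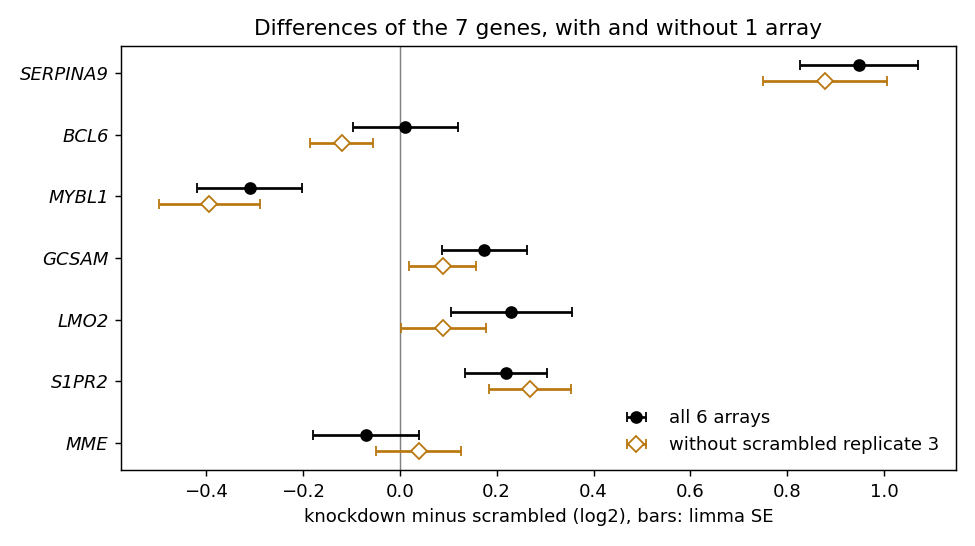
Difference between knockdown and scrambled cells in log2 units (horizontal axis) for each gene, with bars for the limma standard error, from all 6 arrays (filled) and without scrambled replicate 3 (open). SERPINA9 stays near 0.9 (0.95 and 0.88), while BCL6 and MME change sign and GCSAM and LMO2 come down to 0.09.

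The genes whose values over the 6 arrays were most like those of each germinal centre gene differed from gene to gene. Likeness was Pearson's r of log2 values over 6 arrays, among the 9195 other genes whose SD was at or above the median, and with 6 points and so many candidates a high r is found for nearly any profile. For SERPINA9 these were ALDH1L2, a mitochondrial folate enzyme, at r = 0.996 with a difference of 1.18 ± 0.12 log2 units (SE), and ETNK1, an ethanolamine kinase, also at r = 0.996 with a difference of 0.34 ± 0.07. For MYBL1 they were AIM2, a cytosolic DNA sensor (r = 0.995), and MDM2, the ubiquitin ligase of p53 (r = 0.994). GCSAM was followed by PLEKHF2 (r = 0.999) and LINC02210 (r = 0.998), and LMO2 by RAB11FIP1 (r = 0.999) and COL4A3 (r = 0.996). S1PR2 was followed by SLC35C1 (r = 0.983) and SORBS3 (r = 0.977), BCL6 by DHX16 (r = 0.994) and OR2L8 (r = 0.988), and MME by ANAPC13 (r = 0.990) and MRPS9 (r = 0.985). No gene was among the top 2 for more than one of the 7.

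Other genes of the germinal centre programme moved in both directions or did not pass. Of 36 measured, 4 rose, 1 fell and 31 did not pass, with 13.9% called against 3.61% of all genes and a median difference of 0.01 log2 units. This list and those that follow were chosen with earlier results known, so such shares describe them and nothing is read from them. RGS13, a regulator of G protein signalling that is found in germinal centre B cells, rose from 6.19 ± 0.13 to 6.98 ± 0.26 log2 units (SD, n = 3 each), by 0.79 ± 0.13 (SE; limma, adjusted p = 0.0150). PAG1, a membrane adaptor that recruits CSK, rose by 0.60 ± 0.11 (adjusted p = 0.0223). BCL7A, a subunit of the SWI/SNF remodelling complex, rose by 0.48 ± 0.08 (adjusted p = 0.0191), and IRAG2, also called LRMP or JAW1, an endoplasmic reticulum protein of germinal centre B cells, by 0.40 ± 0.07 (adjusted p = 0.0167). CD38, a surface NAD glycohydrolase carried by germinal centre and plasma cells, fell from 7.37 ± 0.11 to 6.23 ± 0.11, by 1.14 ± 0.08 (adjusted p = 0.000834). Both means of PAG1, the scrambled mean of RGS13 and the knockdown mean of CD38 lay within the range of the reference genes, where fold changes are compressed. The count was 2 without knockdown replicate 1 or scrambled replicate 2 and 1 without knockdown replicates 2 or 3. POU2AF1, the B cell coactivator that binds octamer sites together with POU2F factors, read 10.66 ± 0.05 and 10.58 ± 0.12 in the knockdown and scrambled arrays, a difference of 0.08 ± 0.08 that did not pass.

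**Figure D3:**
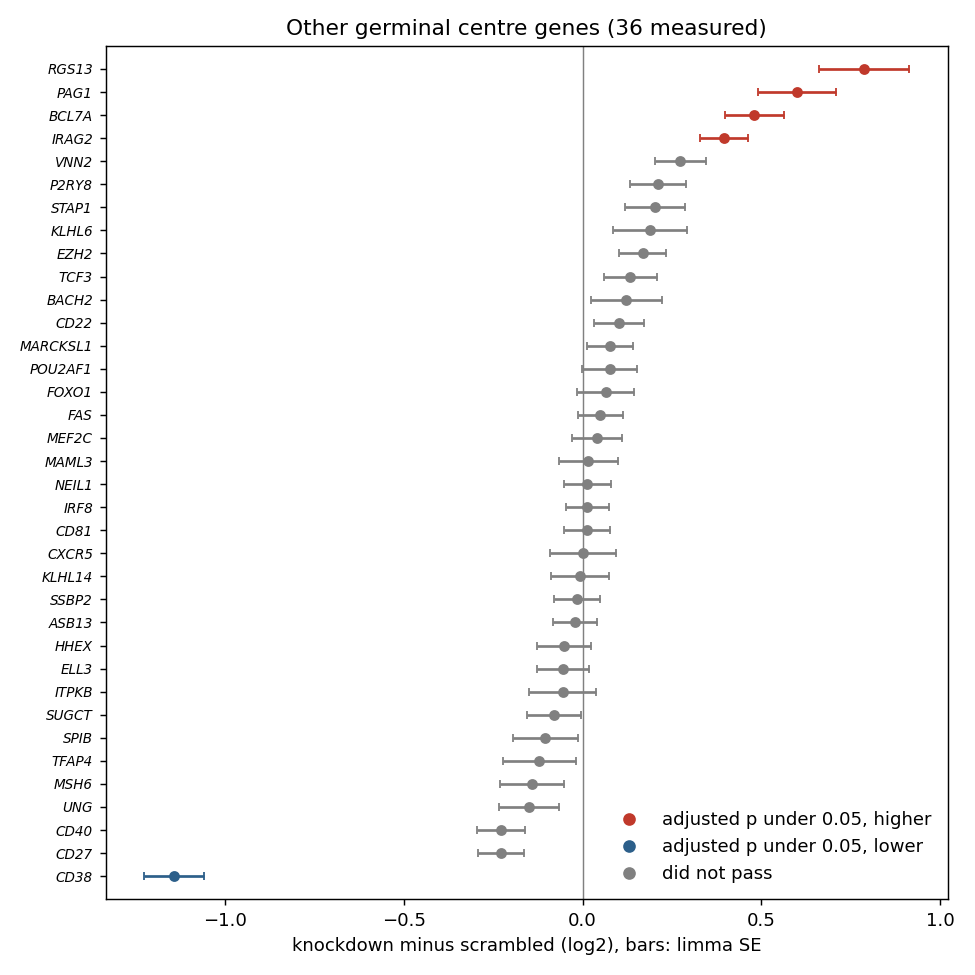
Differences between knockdown and scrambled cells in log2 units (horizontal axis) with limma standard errors for the 36 other germinal centre genes measured; red and blue points passed an adjusted p under 0.05. RGS13 (0.79), PAG1 (0.60), BCL7A (0.48) and IRAG2 (0.40) lie to the right, CD38 (-1.14) to the left, and the other 31 did not pass.

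In the germinal centre, cells cycle between a dark zone of division and a light zone of selection. None of 10 dark zone genes passed, with 3 at an unadjusted p under 0.05 and a median of -0.16 log2 units; CCNB1, the mitotic cyclin B1, read -0.26 ± 0.08 (SE). Of 14 light zone genes, 2 rose and 2 fell, or 28.6% against 3.61% of all genes, with a median of -0.03; the count was 1 without any one knockdown replicate or without scrambled replicate 2. CD86, a costimulatory ligand, fell by 1.33 ± 0.10 (adjusted p = 0.000834), and CD83, a marker of light zone and activated B cells, by 0.39 ± 0.07 (adjusted p = 0.0208). EGR1, an immediate early transcription factor, rose by 0.53 ± 0.11 (adjusted p = 0.0340), and CCR6, the receptor of CCL20, by 0.35 ± 0.07 (adjusted p = 0.0289).

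Diffuse large B cell lymphomas are sorted by an expression assay into a germinal centre and an activated B cell type, and 4 of the 7 genes, SERPINA9, MYBL1, S1PR2 and MME, belong to its germinal centre side. The 3 others of that side, ITPKB, ASB13 and MAML3, read -0.06 ± 0.09, -0.02 ± 0.06 and 0.02 ± 0.08 log2 units (SE) and did not pass. On the activated side 1 of 8 genes rose and 7 did not pass, or 12.5% against 3.61% of all genes, with a median of 0.20; no gene of this side passed without any one knockdown replicate or without scrambled replicate 2. CREB3L2, a membrane-bound transcription factor of the unfolded protein response, rose by 0.32 ± 0.07 (adjusted p = 0.0352). TNFRSF13B, the receptor TACI, read 0.22 ± 0.06 and CCDC50 0.25 ± 0.06, neither of which passed.

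The partners and targets of BCL6 were examined next. None of 13 measured corepressors and partners passed, with 2 at an unadjusted p under 0.05 and a median of -0.04 log2 units; CTBP1 read -0.28 ± 0.07 (SE). Of 20 genes known to be repressed by BCL6, 1 rose, 2 fell and 17 did not pass, or 15% called against 3.61% of all genes, with a median of -0.04; the count was 1 without knockdown replicate 2 and 0 without knockdown replicates 1 or 3. CCND2, cyclin D2, fell by 0.85 ± 0.14 (adjusted p = 0.0153), CD44, a hyaluronan receptor, fell by 0.48 ± 0.07 (adjusted p = 0.0106), and CCR6 rose as given above. CD69, an early activation antigen, read 0.29 ± 0.08, and PRDM1, the regulator of plasma cell fate, read 7.20 ± 0.09 in the knockdown and 7.23 ± 0.35 with scrambled shRNA (SD, n = 3 each); neither passed.

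Of 13 measured plasma cell genes, 2 rose and 3 fell, or 38.5% against 3.61% of all genes, with a median of -0.04 log2 units; 3 passed without any one knockdown replicate or without scrambled replicate 2. The falls were in CD38, given above, in TNFRSF17, the survival receptor BCMA, by 0.66 ± 0.07 (SE; adjusted p = 0.00309), and in ELL2, an elongation factor of antibody-secreting cells, by 0.51 ± 0.06 (adjusted p = 0.00620). MZB1, an endoplasmic reticulum chaperone partner, rose by 0.44 ± 0.08 (adjusted p = 0.0180), besides CREB3L2. The earlier results on these arrays had already shown CD38, TNFRSF17, ELL2 and MZB1. These calls and those of the other lists come from the same arrays and are no independent evidence.

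Around S1PR2, 1 of 17 genes of sphingosine 1-phosphate metabolism, its other receptors and G alpha 13 signalling rose and 16 did not pass, or 5.88% called against 3.61% of all genes, with a median of 0.06 log2 units. PLPP1, a lipid phosphate phosphatase, rose by 0.41 ± 0.09 (SE; adjusted p = 0.0370) from a scrambled mean within the range of the reference genes. P2RY8, the other G alpha 13-coupled confinement receptor of germinal centre B cells, read 0.21 ± 0.08 and GNA13, which encodes that G protein subunit, 0.13 ± 0.06, and S1PR1, the receptor that draws B cells out of follicles, read -0.03 ± 0.07; none of the 3 passed.

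Around GCSAM, 1 of 13 measured genes of SYK, ezrin-family and RhoA signalling rose and 1 fell, or 15.4% called against 3.61% of all genes, and 1 was left without any one array. ARHGEF12, a RhoA exchange factor that is activated by G alpha 13, rose by 0.55 ± 0.07 log2 units (SE; adjusted p = 0.00546), and RDX, the membrane linker radixin, fell by 0.42 ± 0.10 (adjusted p = 0.0493). None of 16 LMO2 partners and paralogues passed, with 2 at an unadjusted p under 0.05; SSBP3, a single-stranded DNA-binding protein of LDB1 complexes, read -0.20 ± 0.06 and LDB2, a LIM-domain-binding protein, 0.17 ± 0.06. None of 8 genes passed among the MYB relatives, the MuvB subunits and FOXM1, with 1 at an unadjusted p under 0.05. That was LIN9, a MuvB subunit, at -0.25 ± 0.07. MYB itself read 0.12 ± 0.09 and MYBL2 0.11 ± 0.12.

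The relatives of SERPINA9 and MME did not pass either. Of 10 clade A serpins, 0 passed in limma and 0 had an unadjusted p under 0.05, with differences from -0.32 to 0.09 log2 units and SERPINA1, alpha-1-antitrypsin, at -0.32 ± 0.18 (SE). None of their group means lay above the range of the reference genes, below the top of which a change is compressed. Of 6 M13 peptidases related to MME, 0 passed and 1 had an unadjusted p under 0.05, ECE1, an endothelin-converting enzyme, at -0.41 ± 0.10 (adjusted p = 0.0520). This absence depended on the processing. The count of M13 peptidases called was 1 after another quantile normalisation, among the brighter genes and with 1 other variance prior. It was also 1 with array weights and without scrambled replicate 1.

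Among cell type markers, none of 11 B cell markers passed, with 2 at an unadjusted p under 0.05: BANK1, a scaffold of B cell receptor signalling, at 0.31 ± 0.09 log2 units (SE), and PAX5, the B lineage transcription factor, at -0.21 ± 0.07. Their mean level was 9.85 to 9.87 in the knockdown arrays and 9.67 to 9.84 in the scrambled arrays. Of 11 T cell markers 1 fell, ICOS, a T cell costimulatory receptor, by 0.68 ± 0.07 (adjusted p = 0.00217), with both means within the range of the reference genes, and their mean level was 5.01 to 5.14 and 5.09 to 5.10. None of 11 myeloid and follicular dendritic cell markers passed, with 1 at an unadjusted p under 0.05, and their mean level was 5.31 to 5.35 and 5.36 to 5.43. None of the 23 reference genes of other tissues passed, with 2 at an unadjusted p under 0.05. The part of these shifts in the germinal centre genes was not tested. In RNA from whole cultures, fewer cells that express a gene and less RNA per cell cannot be told apart.

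**Figure D4:**
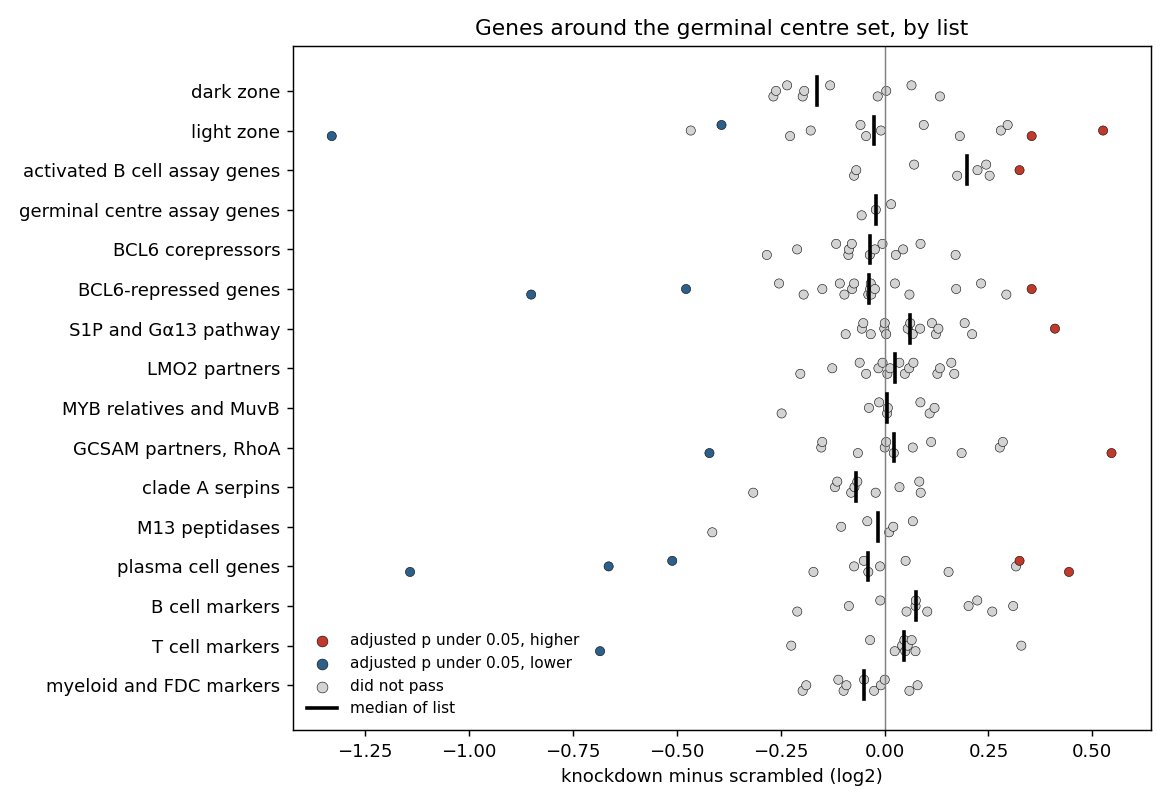
Differences between knockdown and scrambled cells in log2 units (horizontal axis) for the genes of the lists shown (rows), with black bars at list medians. The 7 germinal centre genes, the list of other germinal centre genes and the reference genes of other tissues are left out. Red and blue points passed an adjusted p under 0.05. The medians lie between -0.16 for dark zone genes and 0.20 for the activated B cell assay genes, and the genes that passed lie on both sides of 0.

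Over the lists, which held 224 distinct genes measured besides the 7, 10 genes rose and 9 fell, or 8.48% called against 3.61% of all genes. The lists were chosen with earlier results of these data known, so no excess is read from this share. The 3.61% also covers genes of dim signal, which were not filtered out. The calls of CD38, CD86, TNFRSF17, ELL2, ICOS and ARHGEF12 were kept under each of the alternative fits in which the gene was tested. The calls of BCL7A, PAG1, MZB1 and PLPP1 were lost without any one of the 3 knockdown replicates and without scrambled replicate 2, and so were those of IRAG2, CD83, CREB3L2, EGR1 and CCR6, of which EGR1 and CCR6 were lost without scrambled replicate 1 too. The call of CCND2 was lost without any one knockdown replicate, that of CD44 without knockdown replicates 1 or 3 and that of RGS13 without knockdown replicates 2 or 3. RDX lost its call under 11 of 15 alternatives, including each array left out. CCR6 also lost its call when arrays were centred on their median. Without scrambled replicate 3, the calls other than that of RDX were kept, with RGS13 at 0.79, CD38 at -1.08, CD86 at -1.26 and CCND2 at -0.67 log2 units.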

How the data were processed

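Total RNA was labelled with biotin by a whole-transcript kit, per the labels, with 1 array per sample. The table deposited by the authors holds log2 values from 2.20 to 14.3 for 32321 probe sets, normalised with RMA per the submitters' processing notes, with a version not given in the sources. They were used as deposited. Through the platform annotation 19158 probe sets named 1 symbol; for the 637 genes with several, the one with the highest mean was kept, without a filter on dim signal. The comparison used limma 3.58.1 under R 4.3.3 (lmFit and eBayes without covariates, two-sided), p-values adjusted by Benjamini-Hochberg over 18404 genes, and a threshold of 0.05; differences are knockdown minus scrambled. The number of arrays limits the precision.

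The genes and the 18 lists (229 of 254 symbols measured) were chosen with earlier results of these data known. Named besides the 7 genes are UGT2B17, the called genes of each list, others with the smallest p (up to 4 per list), and the 2 genes most like each; POU2AF1, PRDM1, S1PR1, CD68 and ELANE were named after their values were seen. The alternatives tried are listed with their effects in the closing section.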

Additional observations from a re-analysis of the deposited data

How the results depend on the processing

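The number of genes called, 665, stayed within 1.5 times under another quantile normalisation, median centring, both other probe set choices and both other variance priors. Among the brighter genes 796 were called, but only genes at or above the median mean were tested there, so the share called rose above 3.61%. The number called became 3511 with array weights, which gave scrambled replicate 2 a weight of 6.12 and scrambled replicate 3 one of 0.2496. It became 1207 at an adjusted p under 0.1. Genes called over the lists, 19, became 61 with array weights and 33 at an adjusted p under 0.1. Leaving out each array gave 152 to 759 genes in all and 6 to 22 over the lists, in fits with 1 residual degree of freedom less. The median of the 7 differences lay between 0.09 and 0.23 with an array left out and moved by less than the spread between replicates under each alternative in which all 7 genes were tested; among the brighter genes only MYBL1, GCSAM and S1PR2 were left. Of 101 values of single germinal centre genes under alternatives 100 moved by less than their SD, the exception being MME, at 0.10 with array weights. This count was largely fixed in advance and does not measure stability. The brighter genes, the other probe set choices, the variance priors and the block could not change these differences. With 3 arrays per group, leaving out 1 array cannot move a difference by the full pooled SD. BCL6 and MME, both near 0, changed sign under some alternatives.

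With the replicate number as a block 367 genes were called. Deviations of same-numbered arrays correlated at -0.05, -0.07 and -0.03, so the numbers were not taken to pair the samples; some arrays correlated best with another number. The block left 1 of 4 light zone calls and 0 of 1 on the activated B cell side, and ended the calls of CCR6, CD83, CREB3L2, EGR1, IRAG2 and RDX.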
